A study of Mus musculus with 30 samples.

Results

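The metallothioneins Mt1, Mt2 and Mt3 were examined in forebrain tissue of 30 male C57BL mice, each on its own Affymetrix MOE430A array. The genes were found by platform gene symbol, which gave 4 probe sets for 3 genes out of 12393 genes named by 1 symbol and 22626 probe sets: 1422557_s_at and 1451612_at for Mt1, 1428942_at for Mt2 and 1420575_at for Mt3. The study set chronic clozapine, an atypical antipsychotic, beside chronic haloperidol, a typical antipsychotic that mainly blocks dopamine D2-type receptors. The 10 clozapine mice drank water dosed at 12 mg per kg per day for 12 weeks, the 10 haloperidol mice drank water dosed at 1.6 mg per kg per day for 12 weeks, and the 10 control mice had no drug over the same time. All 3 groups were singly housed mice of 1 strain with no engineered allele, labelled as 4 weeks of age, which cannot be their age after the treatment. The hemisphere is right in most label fields and left in the tissue field, and the dose note in the haloperidol protocol names clozapine. RNA came from whole tissue, so fewer cells of a type and less RNA per cell cannot be told apart.

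Metallothioneins are small proteins whose many cysteines bind zinc and copper. Mt1 and Mt2 are induced together by zinc through the factor MTF1, which binds metal response elements in their promoters, and also by glucocorticoids and inflammatory cytokines. In brain their main source is the astrocyte. Mt3 is enriched in brain, is found in zinc-rich neurons, was first isolated as a growth inhibitory factor, and responds little to metals. The fourth member, Mt4, belongs to stratified squamous epithelium.

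The 250 bases before the RefSeq start of each gene (GRCm38.p6, plus strand of chromosome 8) are shown for the inducible genes Mt1 and Mt2 and the brain-enriched Mt3. Capitals mark matches on either strand to the metal response element core, searched as TGCACNC and TGCGCNC. The windows are chr8:94178839-94179088 for Mt1, chr8:94172368-94172617 for Mt2 and chr8:94152357-94152606 for Mt3.
Mt1: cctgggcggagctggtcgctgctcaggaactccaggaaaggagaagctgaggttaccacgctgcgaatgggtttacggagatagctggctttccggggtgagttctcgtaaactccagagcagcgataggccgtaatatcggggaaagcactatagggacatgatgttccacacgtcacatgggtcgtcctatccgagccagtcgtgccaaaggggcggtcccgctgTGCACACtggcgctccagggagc
Mt2: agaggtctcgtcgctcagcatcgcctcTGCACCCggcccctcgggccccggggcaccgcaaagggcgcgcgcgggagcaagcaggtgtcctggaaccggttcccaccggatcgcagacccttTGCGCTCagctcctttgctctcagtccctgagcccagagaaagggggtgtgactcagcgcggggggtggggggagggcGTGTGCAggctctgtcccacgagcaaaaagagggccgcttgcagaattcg
Mt3: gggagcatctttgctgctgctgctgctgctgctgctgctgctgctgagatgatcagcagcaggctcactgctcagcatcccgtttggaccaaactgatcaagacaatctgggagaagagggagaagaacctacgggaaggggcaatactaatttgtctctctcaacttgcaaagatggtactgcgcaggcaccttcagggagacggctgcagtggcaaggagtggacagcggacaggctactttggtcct

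The Mt2 window held 3 cores, of which the one nearest the start was on the minus strand. The Mt1 window held 1 core and the Mt3 window 0, and that of the epithelial Mt4, not shown, also held 1. Among 32851 mouse promoter windows of the same length, 21.4% held at least 1 core and 1.26% held at least 3. Counted in the full 300 base windows, which run past the start, the cores numbered 3 for Mt1, 4 for Mt2, 1 for Mt3 and 1 for Mt4. Of all windows of that length 1.97% held at least 3. The Mt1 count thus depends on the start used. The Mt2 window also held the letters TGACNNNGC, the core of the antioxidant response element that NRF2 binds, which 10.2% of the windows held. These letters were matched in the sequence and were not measured as binding sites.

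All values below are deposited log2 values, and a difference of 1 is a doubling. Of the 4 probe sets, 3 averaged 4 or more across the arrays and entered the fit of 12944 probe sets. The Mt1 probe set 1451612_at averaged 3.55 and did not, so it was read from a fit with no filter. Its deviations from the group means had a Pearson r of -0.06 and a Spearman rho of -0.13 with those of the other Mt1 probe set over the 30 arrays (permutation p = 0.737 and p = 0.487), so neither probe set stands in for the other. The suffix of 1422557_s_at marks probes shared by more than 1 transcript, so its value may include a near-identical copy. Mt4, given for comparison, averaged 3.06 over all arrays, also below the filter.

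The arrays were uneven in cluster and in a quality index, and this bears on every result below. Clustering of the arrays without their labels gave cluster A with 11 arrays (3 clozapine, 5 haloperidol, 3 control), cluster B with 8 (1 clozapine, 3 haloperidol, 4 control) and cluster C with 7 (5 clozapine, 0 haloperidol, 2 control). The other 4 arrays, clozapine 7, haloperidol 2, haloperidol 7 and control 1, joined no cluster. The 3' minus 5' index, the log2 difference between 3' and 5' control probe sets of Gapdh and Actb, rises as RNA or its labelling becomes less complete at the 5' end. Its median was 0.88 in clozapine arrays, 0.56 in haloperidol arrays and 0.67 in control arrays, with 4.09 in control 1 and 2.45 in haloperidol 7. Markers fitted the tissue, with the synaptic gene Snap25 at 13.17 ± 0.20 in clozapine, 13.11 ± 0.29 in haloperidol and 13.18 ± 0.27 in control forebrains (SD, n = 10 each). By probe sets named by 1 gene symbol, no gene of the blood list passed the filter, and its haemoglobin genes Hba-a1 and Hba-a2 averaged 2.56 and 2.19. Probe sets naming several genes were not read for this list, so blood content was not tested.

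Mt2 was higher in clozapine than in control forebrains. Its value ran from 9.97 to 10.52 with a median of 10.14 in clozapine mice, and from 9.54 to 10.40 with a median of 9.72 in control mice. All 10 clozapine arrays lay above the control mean, and 7 of 10 control arrays lay below every clozapine array. The groups overlapped through 3 control arrays, and the highest of these, control 1, was also the array with the largest 3' minus 5' index. The means were 10.21 ± 0.22 in clozapine mice and 9.82 ± 0.26 in control mice (SD, n = 10 each), a difference of 0.39 with an SE of 0.12 and a 95% interval of 0.15 to 0.63, or 1.31-fold. The genes were selected on an Mt2 difference already seen in this contrast, so the values of clozapine against control are a description with no test. Without control 1 the difference was 0.46.

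In haloperidol forebrains Mt2 lay between the other groups. Its value ran from 9.52 to 10.40 with a median of 10.00 in haloperidol mice, overlapping both other groups, and averaged 9.98 ± 0.25 (SD, n = 10). The difference from control was 0.16 with an SE of 0.12 (limma, p = 0.191, adjusted p = 1.0), with a 95% interval of -0.08 to 0.40. Clozapine minus haloperidol was 0.23 with an SE of 0.12 (limma, p = 0.0546, adjusted p = 0.965), and 9 of 10 clozapine arrays lay above the haloperidol mean. That comparison uses the same clozapine arrays and is no independent check of them, and the haloperidol comparison uses the same control arrays.

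Mt1, by probe set 1422557_s_at, did not differ past the test. It ran from 11.01 to 11.91 with a median of 11.40 in clozapine mice, from 10.73 to 11.88 with a median of 11.39 in haloperidol mice, and from 10.98 to 11.57 with a median of 11.21 in control mice. The groups overlapped over most of their range, and the spread in both drug groups was wider than in control mice, at an SD of 0.26 with clozapine, 0.31 with haloperidol and 0.16 in control, which was not tested. The clozapine difference from control was 0.17 with an SE of 0.12 and a 95% interval of -0.08 to 0.41. The haloperidol difference was 0.16 with an SE of 0.12 (limma, p = 0.181, adjusted p = 1.0). Clozapine minus haloperidol was 0.00 with a 95% interval of -0.24 to 0.25 (limma, adjusted p = 0.998).

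The second Mt1 probe set, 1451612_at, averaged 3.61 ± 0.14 in clozapine mice, 3.56 ± 0.17 in haloperidol mice and 3.47 ± 0.11 in control mice (SD, n = 10 each). GCRMA compresses differences at this level. Its clozapine difference was 0.14 with an SE of 0.06, and its haloperidol difference was 0.09 (limma with no filter, p = 0.169, adjusted p = 0.926). The haloperidol maximum of 3.99 was a single array, haloperidol 5.

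Mt3 varied more between mice than it differed between groups. It ran from 11.24 to 12.06 with a median of 11.41 in clozapine mice, from 10.10 to 12.36 with a median of 11.25 in haloperidol mice, and from 10.76 to 11.85 with a median of 11.45 in control mice. Both extremes of the haloperidol group, haloperidol 7 at the bottom and haloperidol 2 at the top, were arrays that joined no cluster. The clozapine difference from control was 0.17 with an SE of 0.20 and a 95% interval of -0.24 to 0.58. The haloperidol difference was -0.12 with an SE of 0.20 (limma, p = 0.552, adjusted p = 1.0), and it was 0.01 without haloperidol 7. Clozapine minus haloperidol was 0.29 with an SE of 0.20 (limma, p = 0.161, adjusted p = 0.965). It was 0.16 without haloperidol 7, 0.41 without haloperidol 2 (limma, p = 0.0338, adjusted p = 0.741) and 0.37 with the array cluster as a block (limma, p = 0.00583, adjusted p = 0.778).

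**Figure D1:**
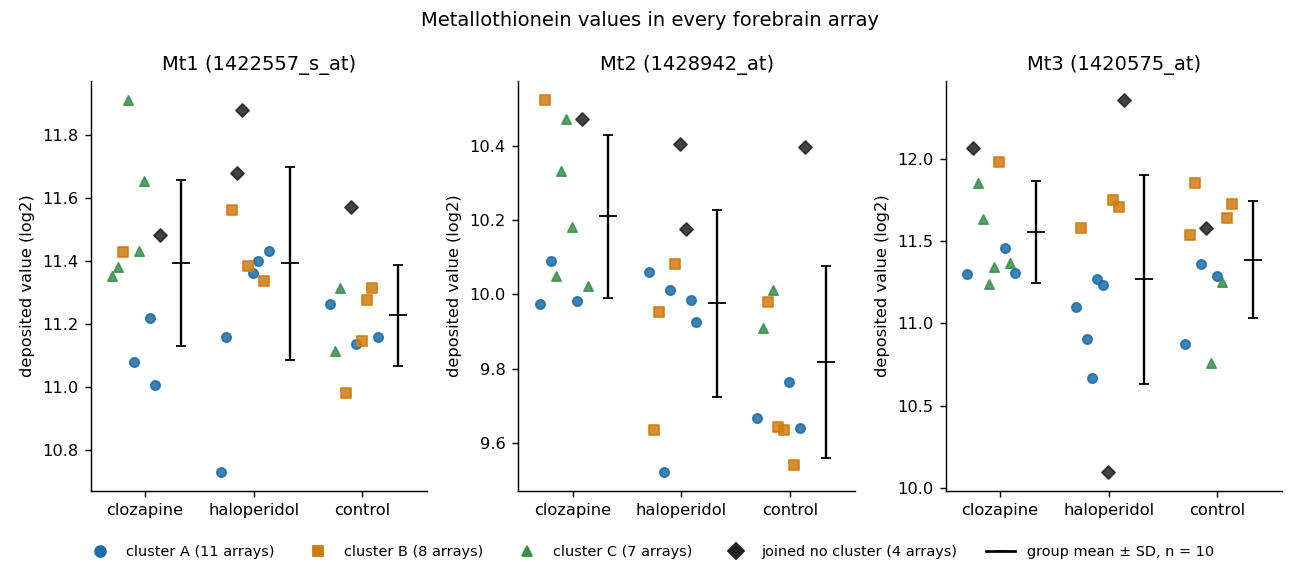
Deposited log2 values of Mt1 (1422557_s_at), Mt2 and Mt3 in each array by group, with the marker giving the array cluster and the bar the group mean and SD (n = 10). For Mt2, 7 of 10 control arrays sit below every clozapine array, while Mt1 and Mt3 overlap across all groups.

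None of the metallothionein probe sets was called in any comparison, and none of the 12944 tested probe sets was either. At an adjusted p under 0.05 limma called 0.0% of the probe sets for clozapine against control, 0.0% for haloperidol against control and 0.0% for clozapine against haloperidol. At an unadjusted p under 0.05 the counts were 563 (4.35%), 298 (2.3%) and 406 (3.14%) in the same order of comparisons. In this fit no metallothionein passed the unadjusted limit for haloperidol against control or for clozapine against haloperidol. Under 15 alternative settings Mt2 in clozapine against haloperidol was under it in 9, with unadjusted limma p from 0.00459 to 0.0857, and its adjusted p stayed at 0.154 or above. These settings refit the same arrays, and the genes were selected on Mt2 in the clozapine arrays. The count of 9 is therefore no repeated or independent support. All 3 tested members were higher in clozapine than in control forebrains, where 55.3% of all probe sets were, and the contrast had chosen 1 of them.

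**Figure D2:**
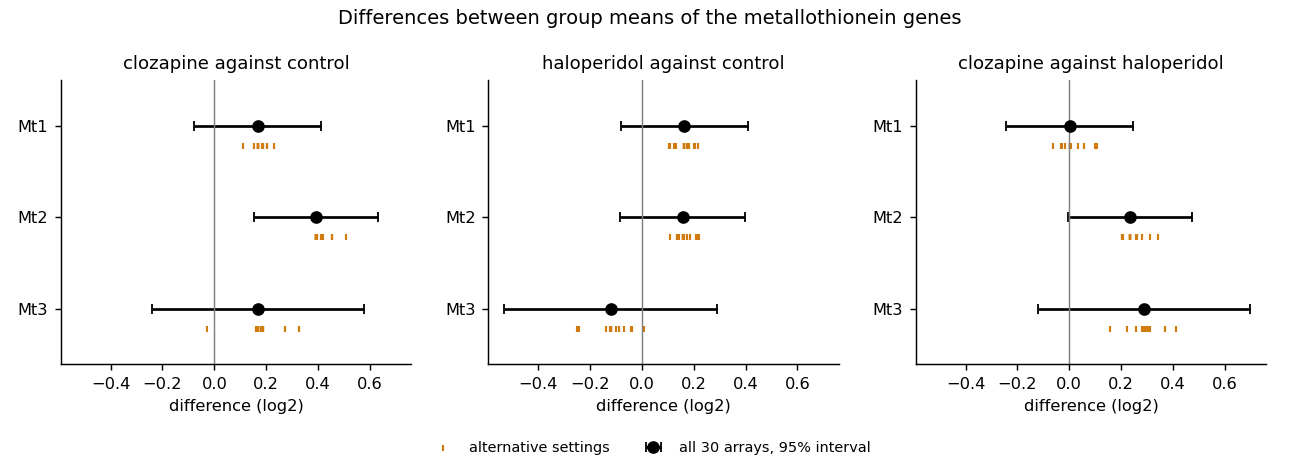
Differences between group means in log2 units for Mt1, Mt2 and Mt3, with 95% intervals from all 30 arrays (black) and the values under the alternative settings (orange ticks). For clozapine against control the values are 0.17 for Mt1, 0.39 for Mt2 and 0.17 for Mt3, a description with no test, since the genes were selected on Mt2 in that contrast.

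Within the array clusters the Mt2 difference had the same direction. This is no independent check, since the genes were selected on Mt2 in these same arrays. Clozapine minus control was 0.32 in cluster A, from 3 arrays at 10.02 ± 0.06 and 3 at 9.69 ± 0.07 (SD). In cluster C it was 0.25, from 5 clozapine arrays at 10.21 ± 0.19 and 2 control arrays at 9.96 ± 0.07 (SD), and in cluster B it was 0.82 from a single clozapine array. With cluster as a block, which drops the 4 arrays that joined none, the Mt2 difference was 0.39. For Mt1 the same differences were -0.08 in cluster A, 0.25 in cluster B and 0.33 in cluster C, so its direction was not the same in all 3. For Mt3 they were 0.18 in cluster A, 0.30 in cluster B and 0.48 in cluster C. Haloperidol minus control for Mt2 was 0.21 in cluster A and 0.19 in cluster B, and cluster C held no haloperidol array.

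The differences can also be read by array number, again as a description of the same arrays. Clozapine minus control for Mt2 was 0.24 in arrays 1 to 6 and 0.62 in arrays 7 to 10. For Mt3 it was 0.34 in arrays 1 to 6 and -0.09 in arrays 7 to 10, so its direction turned. In arrays 7 to 10 every control array was in cluster B, and the clozapine arrays were in cluster C or in none. Drug and cluster therefore cannot be told apart in that range. Inside the clusters the Mt3 difference was positive throughout, at 0.18 in A, 0.30 in B and 0.48 in C. What the numbers stand for is not given in the labels, and the difference between the number ranges was not tested.

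Mt1 and Mt2, the jointly inducible genes, varied together between mice. After group means were removed, the Pearson r between them was 0.61 and the Spearman rho 0.59 over 30 arrays (permutation p = 0.0005 and p = 0.00078, adjusted over 5 pairs p = 0.0025 and p = 0.0039). The r was 0.61 without the 2 arrays farthest in Mt1, clozapine 6 and haloperidol 3. Over 12943 other probe sets, 2.8% had a higher r with Mt2 than Mt1 had, and 5.03% had a higher r with Mt1 than Mt2 had. With cluster means removed these shares were 8.07% and 20.1%. No value inside a single cluster was past adjustment over 15 relations. In cluster A the r was 0.72 and the rho 0.22 (n = 11, permutation, adjusted p = 0.377 and p = 0.90), in cluster B 0.65 and 0.62 (n = 8, exact permutation, adjusted p = 0.391 and p = 0.747), and in cluster C -0.27 and -0.29 (n = 7, exact permutation, adjusted p = 0.708 and p = 0.90). With cluster means removed as well, r was 0.31 over 26 arrays (permutation, adjusted p = 0.208), and without control 1, haloperidol 2 and haloperidol 7 it was 0.43 (permutation, adjusted p = 0.0612).

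By treatment the r between Mt1 and Mt2 was 0.26 in clozapine mice, 0.84 in haloperidol mice and 0.77 in control mice, none past adjustment over 15 relations (permutation, n = 10 each), and the difference between groups was not tested. No Pearson r of Mt3 passed adjustment over all 30 arrays with group means removed alone, though some did with the 3' minus 5' index removed, as 0.41 with Mt1 and 0.44 with Mt2 (permutation, adjusted p = 0.0445 and p = 0.0412). The Spearman rho of Mt3 there was 0.42 and 0.39, neither past adjustment (permutation, adjusted p = 0.0526 for each). With group means removed alone its r was 0.31 with Mt1 and 0.26 with Mt2 (permutation, adjusted p = 0.159 and p = 0.21), with rho of 0.39 and 0.27. The r with Mt2 was 0.07 without control 1 and haloperidol 2, and inside the clusters it was 0.30 in A, 0.32 in B and 0.45 in C. The Mt1 probe set 1451612_at had an r of -0.38 and a rho of -0.43 with Mt3 (permutation, adjusted p = 0.105 and p = 0.0447), and an r of -0.61 in cluster A, 0.51 in cluster B and -0.07 in cluster C.

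Mt2 and Mt1 also moved with the array quality index. The r between the 3' minus 5' index and Mt2, less group means, was 0.66 and the rho 0.67 over 30 arrays (permutation, p = 3e-05 and p = 0.00013, adjusted over 4 probe sets p = 0.00012 and p = 0.00052). It was 0.67 without control 1 and haloperidol 7. For Mt1 it was 0.46 and 0.46 (permutation, adjusted p = 0.0354 and p = 0.0239), and for Mt3 -0.11 and -0.05. An r higher than that of Mt2 was held by 4.37% of all tested probe sets, and 27.8% had an absolute r of at least 0.5 with the index. Inside the clusters the r for Mt2 was 0.35 in A (n = 11), 0.17 in B (n = 8) and 0.62 in C (n = 7), none past adjustment over 12 relations (exact or 100000-draw permutation). With the index as a covariate the clozapine difference in Mt2 was 0.42. The index averaged 0.94 in clozapine and 1.07 in control arrays, the latter raised by control 1 at 4.09. Its medians, 0.88 and 0.67, ran the other way, and the part of array quality in the Mt2 difference was not tested. With the index removed the r between Mt1 and Mt2 was 0.45 and the rho 0.35 (permutation, adjusted p = 0.0412 and p = 0.0697).

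**Figure D3:**
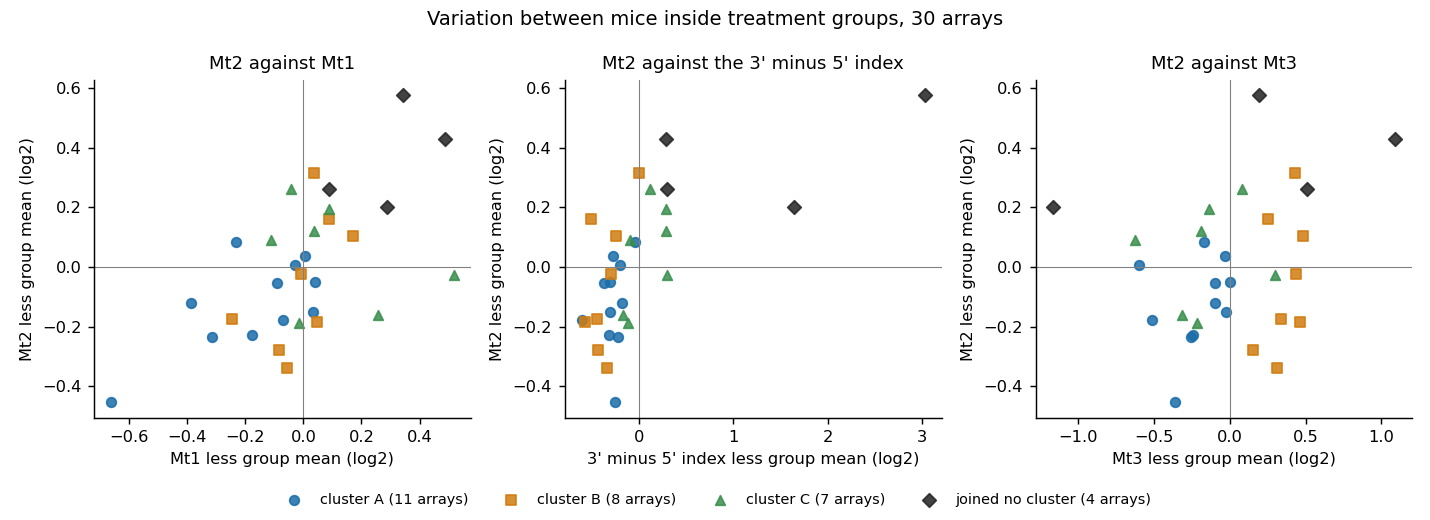
Mt2 less its group mean, in log2 units, against Mt1, against the 3' minus 5' index and against Mt3, each less its group mean, for 30 arrays with the marker giving the array cluster. The 4 arrays that joined no cluster all have Mt2 above their group mean, and the r across all arrays is 0.61 with Mt1, 0.66 with the index and 0.26 with Mt3.

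The spread between mice was set against that of all tested probe sets. The residual SD was 0.25 for Mt1 and 0.24 for Mt2, and 9.28% and 8.31% of the tested probe sets had a smaller one. Mt3 had a residual SD of 0.46, and 54.0% had a smaller one. Among probe sets within 0.5 of each gene's own level, the shares with a smaller SD were 24.5% for Mt1, 11.4% for Mt2 and 81.7% for Mt3.

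The genes most like each metallothionein were ranked by r over the 30 arrays less group means, as a description, since the arrays share their quality and cluster. For Mt1 the highest were Mea1 (0.86), the calpain subunit gene Capns1 (0.84), the signal recognition particle gene Srp14 (0.84), the neuropeptide gene Npy (0.84), the stress-response transcription factor gene Ddit3 (0.83), the mitochondrial Chchd10 (0.83), the mevalonate pathway gene Pmvk (0.83), the receptor modifier gene Ramp2 (0.83), the transcription factor gene Atf4 (0.82) and Mcee (0.81). Removing cluster means left Mea1 at 0.82 and Atf4 at 0.67. The lowest were the transcription factor gene Mef2a by both of its probe sets (-0.86 and -0.76), the mitochondrial coactivator gene Ppargc1a (-0.77), Cemip2 (-0.76) and the kinesin gene Kif2a (-0.76).

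For Mt2 the highest were the respiratory complex I gene Ndufb9 (0.80), the cathepsin gene Ctsh (0.75), the thyroid hormone-binding Crym (0.75), Slc25a33 (0.75), the chemokine gene Cxcl14 (0.75), Apc2 (0.74), Apmap (0.74), the mitochondrial creatine kinase gene Ckmt1 (0.73), the co-chaperone gene Dnajb6 (0.73) and Ddt (0.73). With cluster means removed Ndufb9 stood at 0.60 and Dnajb6 at 0.66. The lowest were the metalloproteinase inhibitor gene Timp2 (-0.76), the long noncoding RNA Malat1 (-0.74), Cdk14 (-0.74), 2610507B11Rik (-0.74) and Itsn2 (-0.74). The share of probe sets with an absolute r of at least 0.5 to Mt2 was 16.4%, and 1.34% once cluster means were removed.

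For Mt3 the highest were the proton pump gene Atp6v0b (0.88), Cnpy3 (0.87), the acetylcholinesterase gene Ache (0.87), the phospholipid transfer gene Pltp (0.87), the complex I gene Ndufs7 (0.87), 1110008P14Rik (0.85), Arl2 (0.85), Ptprn (0.85), the synaptotagmin gene Syt5 (0.84) and the sodium pump regulator gene Fxyd7 (0.84). The lowest were Vps54 (-0.83), Jade1 (-0.81), the cholesterol synthesis gene Hmgcs1 (-0.80), Synj2bp (-0.80) and Usp7 (-0.79). Several were far smaller in size with cluster means removed, where Ndufs7 stood at 0.32, Vps54 at -0.09 and Hmgcs1 at -0.02.

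No gene of the wider zinc and copper system passed the test in any comparison. Of its 30 listed genes 22 were tested, and limma called 0. At an unadjusted p under 0.05, 0 were higher and 0 lower for clozapine against control, where 2.12% and 2.22% of all probe sets were. For haloperidol against control 0 were higher and 1 lower, beside 0.834% and 1.47% of all probe sets. The 1 was the zinc transporter gene Slc30a9, at -0.44 (limma, adjusted p = 1.0). The list median was -0.01 for clozapine against control and -0.06 for haloperidol against control, beside 0.02 and -0.03 over all probe sets. The zinc sensor gene Mtf1 averaged 6.46 ± 0.44 in clozapine, 6.29 ± 0.70 in haloperidol and 6.22 ± 0.38 in control mice (SD, n = 10 each), with a clozapine difference of 0.24. Slc30a1, the zinc exporter that MTF1 also induces, averaged 4.29 ± 0.19 in clozapine, 4.32 ± 0.31 in haloperidol and 4.41 ± 0.21 in control mice, and its r with Mt2 was -0.39. The vesicular zinc transporter of neurons, Slc30a3, averaged 7.19 ± 0.33 in clozapine, 7.12 ± 0.45 in haloperidol and 7.20 ± 0.26 in control mice.

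Between mice, 19 of the 22 zinc and copper genes had a positive r with Mt2, with a median of 0.23, beside 61.2% of all probe sets and a median of 0.13 over them. The highest were the zinc importer Slc39a14 (0.60), the exporter Slc30a6 (0.58) and Slc39a9 (0.56). With cluster means removed 16 of 22 were positive, beside 57.1% of all probe sets, the median was 0.07, and these genes stood at 0.07, 0.04 and -0.07. For Mt3 the median r with the list was 0.15, and its lowest was the copper pump gene Atp7a at -0.68.

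The other systems known to act on Mt1 and Mt2 were read in the same way. In the glucocorticoid list 14 of 19 genes were tested, with 0 called. At an unadjusted p under 0.05, 1 was higher in clozapine mice, where 2.12% of all probe sets were. The 1 was Per1, which is counted again in the circadian list. The list medians were -0.01 with clozapine and 0.09 with haloperidol against control. The glucocorticoid receptor gene Nr3c1 averaged 9.10 ± 0.27 in clozapine, 9.12 ± 0.62 in haloperidol and 9.23 ± 0.34 in control mice. The hormone-induced Fkbp5 averaged 7.63 ± 0.18 in clozapine, 7.78 ± 0.38 in haloperidol and 7.72 ± 0.39 in control mice, and the median r of the list with Mt2 was 0.14. In the cytokine list 8 of 11 genes were tested, with 0 called and 0 at an unadjusted p under 0.05. Of these 8 genes 4 had a positive r with Mt2, beside 61.2% of all probe sets, and the list median was 0.02. The r largest in size was that of Junb, at -0.59, and the highest was that of the signal transducer gene Stat3, at 0.52. With cluster means removed Stat3 stood at 0.21 and the list median at -0.07. In the oxidant defence list 16 of 21 genes were tested, with 0 called. At an unadjusted p under 0.05, 1 was higher in clozapine mice, beside 2.12% of all probe sets. The list had a median r with Mt2 of 0.28. Its highest absolute r with Mt2 were those of Srxn1 (0.65), Gsta4 (0.63) and Nfe2l2 (0.52), the gene for NRF2. With cluster means removed these stood at 0.36, 0.24 and 0.24, and the list median at 0.08.

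The circadian list had the largest median of these lists for clozapine against control, at 0.22, with 0.18 for haloperidol against control, and 0 of its 16 tested genes was called. With the array cluster as a block the medians were 0.19 and 0.06. At an unadjusted p under 0.05, 4 were higher and 1 lower in clozapine than in control mice, and 2 were higher and 0 lower in haloperidol than in control mice. Over all probe sets the shares were 2.12% higher and 2.22% lower for clozapine, and 0.834% and 1.47% for haloperidol. The list was chosen with earlier results of these data known, so its counts and medians are a description. The clock output gene Dbp averaged 10.03 ± 0.25 in clozapine, 9.80 ± 0.51 in haloperidol and 9.29 ± 0.45 in control mice, and its r with Mt2 was -0.01. Its haloperidol difference from control was 0.51, and 0.15 with the cluster block. Of the 16 circadian genes 8 had a positive r with Mt2, beside 61.2% of all probe sets, with a median of 0.10. Per2, a repressor of the clock, had the highest r with Mt2, at 0.62, and 0.33 with cluster means removed. The lowest was that of Rorb, at -0.63.

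Markers of the cells that make metallothioneins were set beside them. All 15 astrocyte genes were tested, with 0 called, 0 at an unadjusted p under 0.05, and a median difference of -0.07 in both drug comparisons with control, and their mean level ran from 9.22 to 9.66 in clozapine, 9.32 to 9.64 in haloperidol and 9.32 to 9.69 in control arrays. The astrocyte filament gene Gfap averaged 9.01 ± 0.33 in clozapine, 8.81 ± 0.61 in haloperidol and 8.76 ± 0.56 in control mice, with an r of 0.67 with Mt2 and 0.68 with Mt1, and 0.24 and 0.52 with cluster means removed. The water channel gene Aqp4 averaged 9.07 ± 0.22 in clozapine, 8.85 ± 0.56 in haloperidol and 9.08 ± 0.26 in control mice, and its r with Mt2 was -0.14. Over the whole astrocyte list 8 of 15 genes had a positive r with Mt2, beside 61.2% of all probe sets, with a median of 0.10. Gfap had the highest r of the list with Mt2, and Slc4a4 the lowest, at -0.69. With cluster means removed 7 of 15 were positive, beside 57.1% of all probe sets. The part of astrocyte content in the Mt2 values was not tested.

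For neurons 13 of 14 genes were tested and 0 were called. At an unadjusted p under 0.05, 1, the GABA synthesis gene Gad2, was lower in clozapine mice, where 2.22% of all probe sets were. The median r of the neuron genes was 0.32 with Mt3 and 0.19 with Mt2. The vesicle gene Syn1 had the highest absolute r of these with Mt2, at 0.61, and its r with Mt3 was 0.59. With cluster means removed the median r of the neuron list with Mt3 was -0.15. Of the oligodendrocyte, microglia, endothelial and choroid plexus lists, 9, 9, 8 and 4 genes were tested and 0 called. At an unadjusted p under 0.05, 1 oligodendrocyte gene, Mobp, was lower in haloperidol mice and 1 microglia gene, Cx3cr1, was lower in clozapine mice, each against control. Over all probe sets 1.47% were lower for haloperidol and 2.22% for clozapine. The choroid plexus gene Ttr averaged 13.85 ± 0.34 in clozapine, 13.64 ± 0.36 in haloperidol and 13.76 ± 0.37 in control mice, with an r of 0.38 with Mt2.

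**Figure D4:**
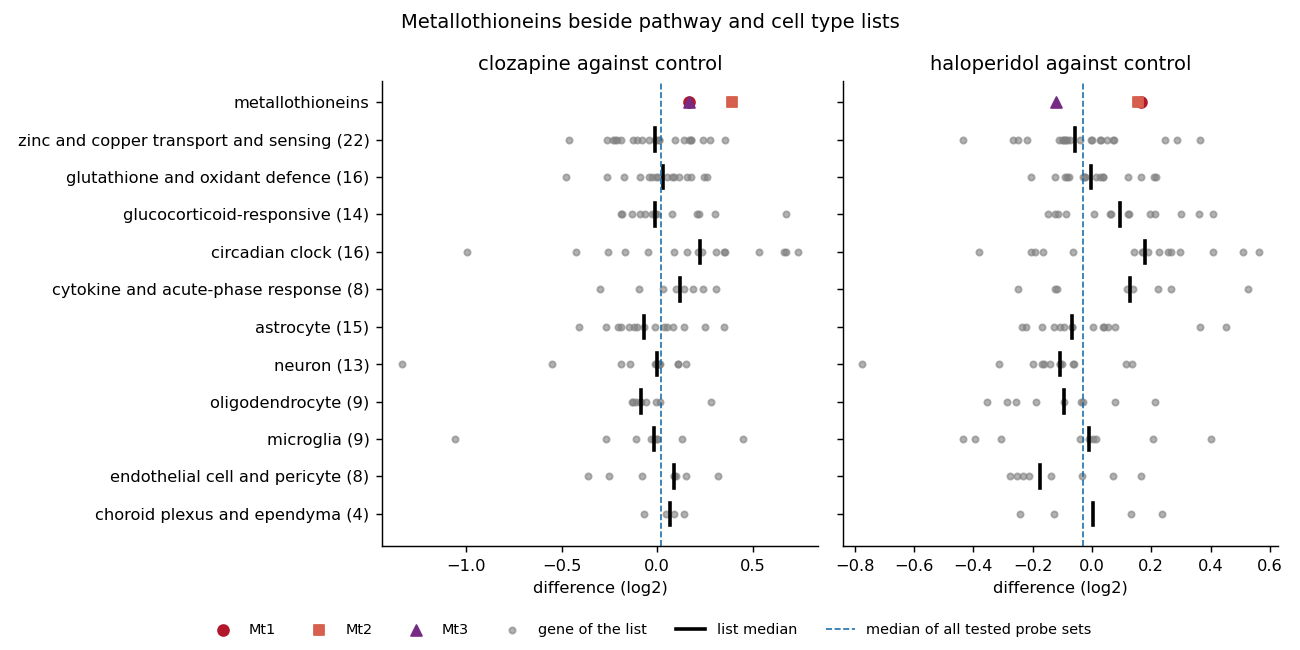
Differences in log2 units for clozapine against control (left) and haloperidol against control (right), with Mt1, Mt2 and Mt3 in the top row, each tested gene of a list as a grey point, list medians as black bars and the median of all tested probe sets as a dashed line. The zinc and copper list is centred near 0 in both panels, at -0.01 for clozapine and -0.06 for haloperidol, while Mt2 lies at 0.39 and 0.16.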

How the data were processed

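The authors deposited log2 values, which the submitters' processing notes credit to GCRMA, a method with background correction by probe sequence, normalization between arrays and summary per probe set. Neither its version nor a scan date is given in the sources used here. After 64 of 22690 probe sets had been dropped as Affymetrix controls, those averaging 4 or more were tested, 12944 in all. Names came from the platform annotation.

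Group means of all 30 arrays were fitted with limma 3.58.1 in R 4.3.3 (lmFit, eBayes; 27 residual degrees of freedom, two-sided, Benjamini-Hochberg adjustment, threshold 0.05), after a check on simulated data. The number of mice limits the precision, with a median SE of 0.19. Correlations used values less group means and 100000 permutations, or exact permutation under 10 arrays. Array clusters came from average linkage on Pearson correlation, cut at 7. The alternatives tried were other filters, normalizations, weights, blocks, a covariate and arrays left out. Samples were grouped by title. Per the design text each array is a separate mouse. Replicate numbers come from the titles.

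The members and lists were chosen with earlier results of these data known. Named genes are all members, the 10 highest and 5 lowest r per gene, up to 3 per list by p or by r with Mt2, and defining genes. Promoters are from RefSeq, GRCm38.p6.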

Additional observations from a re-analysis of the deposited data

Results flagged for a closer look

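In a group of 10 arrays, a value was singled out where its gap to the nearest other array, as a share of the group's range, was past Dixon's 95% limit. Over 18 probe sets in 3 groups, 8 of 54 group tests were past it, where chance gives about 1 in 20. Among the metallothioneins this was the Mt1 probe set 1451612_at in haloperidol 5, at 3.99, the highest of its group. Mt4, the epithelial family member, was at 4.10 in control 5.

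Several of the others lay in arrays that joined no cluster. Control 1, with the largest 3' minus 5' index, had the highest Gfap of its group at 10.31 and the lowest Tsc22d3, a glucocorticoid-induced gene, at 5.81. Haloperidol 2 had the lowest Aqp4 at 7.44 and the lowest Nr3c1 at 7.71, and haloperidol 7 had the highest Sgk1 at 9.49. Clozapine 3 had the highest Slc30a1 of its group at 4.76.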

How the results depend on the processing

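Of 15 alternative settings, 7 cannot change the clozapine difference from control, which is a difference of group means. In the other 8 it ran from 0.39 to 0.51 for Mt2 and from 0.11 to 0.23 for Mt1. For Mt3 it ran from -0.029 with array weights to 0.33 with the array cluster block. The haloperidol difference from control ran from 0.11 to 0.22 for both Mt2 and Mt1. For Mt3 it ran from -0.25 to 0.0095, the last without haloperidol 7. Clozapine minus haloperidol for Mt1 was near 0 and turned to -0.030 with array medians centred, -0.028 with the array cluster block, -0.018 with the 3' minus 5' covariate and -0.063 with array weights and the cluster block together, a setting chosen after seeing the data. Unadjusted limma p under 0.05 came in 9 of the 15 for Mt2 and 3 of the 15 for Mt3 in clozapine against haloperidol, and in 1 each for Mt2 and Mt1 in haloperidol against control. The settings refit the same arrays, and the genes were selected on Mt2 in the clozapine arrays, so these counts are a description. No metallothionein was past an adjusted p of 0.05 in limma for either comparison with haloperidol under any of the 15, the lowest being 0.154 for Mt2 in clozapine against haloperidol.

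The count of called probe sets was 0 in each comparison and moved in 3 settings. Array weights gave 1731 for clozapine against control, 863 higher and 868 lower, and 0 once the cluster block was added. The cluster block gave 1 for haloperidol against control, and with array weights as well it gave 5. The cause was not tested. Counts at an unadjusted p under 0.05 ran higher in several settings, up to 3994, 3094 and 2467 with array weights.

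Among the correlations, that of Mt1 with Mt2 fell to 0.31 with cluster means removed and 0.43 without control 1, haloperidol 2 and haloperidol 7, both no longer past adjustment. With the 3' minus 5' index removed, Mt1 with Mt3 was 0.41, Mt2 with Mt3 was 0.44 and 1451612_at with Mt3 was -0.38, each past adjustment by Pearson r but not by Spearman rho. Without those 3 arrays the last was -0.65. The r of 1451612_at with Mt2 turned to 0.21 with quantile normalization.

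The groups share replicate numbers in their titles. Over 30 pairs of same-numbered arrays the correlation of deviations ran from -0.50 to 0.80, with a median of 0.16 and 17 over 0.1, beside a median of -0.13 and 104 of 270 over 0.1 for arrays of different numbers. Same-numbered arrays were thus more alike on balance, but 13 pairs were not over 0.1, so the numbers were not taken as pairs. With a replicate block the Mt2 difference for clozapine against control was 0.39, 0 probe sets were called in each comparison, and 846, 540 and 642 had an unadjusted p under 0.05. With replicate number means removed in the same way, the replicate block left the r of Mt1 with Mt2 at 0.53 and turned that of 1451612_at with Mt2 to 0.048.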

Other observations

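Mt4, Mt3, Mt2 and Mt1 lie next to each other on mouse chromosome 8, between Bbs2 and Nup93. These neighbours were named after their values were seen. Over 30 arrays less group means, Bbs2 had an r of 0.66 with Mt1, 0.44 with Mt2 and 0.16 with Mt3. Nup93, on the side of Mt1, had an r of 0.11 with Mt1, 0.29 with Mt2 and -0.19 with Mt3. Herpud1, a little farther along, had an r of 0.73 with Mt1, 0.56 with Mt2 and 0.26 with Mt3. For Cpne2 these were 0.23, 0.32 and 0.15. On the side of Bbs2 they were 0.45, 0.38 and 0.43 for Nudt21, and -0.01, -0.18 and 0.59 for Gnao1. Of all other tested probe sets 18.2% had an absolute r of at least 0.5 with Mt1, 16.4% with Mt2 and 21.9% with Mt3. The clozapine minus control differences were -0.14 for Bbs2, -0.18 for Nup93, -0.03 for Herpud1 and 0.18 for Cpne2, which lies farther along. The haloperidol minus control differences were -0.46 for Bbs2, 0.32 for Nup93, 0.07 for Herpud1 and -0.02 for Cpne2.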
